A study of Rattus norvegicus with 18 samples.

Results

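Insulin and insulin-like growth factor 1 (IGF1) are related hormones that act on 2 closely related receptor tyrosine kinases, and their genes were followed here in the retina of diabetic rats. Insr encodes the insulin receptor, Igf1r the IGF1 receptor, and Igf1 the IGF1 ligand. Each receptor binds its own hormone best and the other one weakly, and hybrid receptors built from the products of both genes also form. On binding, both phosphorylate the insulin receptor substrate proteins and pass the signal to the PI3K and AKT kinases and to the MAP kinases, which control survival, growth and metabolism. In the retina, insulin receptor signalling is known as a survival pathway of neurons, and IGF1 acts on neurons, glia and blood vessels.

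The 3 genes were taken by their Ensembl gene numbers, ENSRNOG00000029986 (Insr), ENSRNOG00000014187 (Igf1r) and ENSRNOG00000004517 (Igf1), by a rule that uses no measured value. All 3 were among the 32623 genes of the deposited tables, and all 3 passed the filter on low counts that left 16524 genes for testing. The study took whole retinae of 18 male Wistar rats, 8 weeks old at the start, after 12 weeks. The 3 groups held 6 animals each. NC animals were healthy, age-matched and labelled as given placebo. DC animals had been made diabetic by 35 mg/kg streptozotocin given into a vein, and were likewise labelled placebo. DC + Lixi animals had the same diabetes and received 150 µg/kg lixisenatide under the skin up to week 12, a drug that activates the receptor of the gut hormone GLP-1. The design text describes the diabetic animals as having high blood glucose without high insulin. Streptozotocin destroys pancreatic beta cells, which make insulin, and is thus a model of hormone loss and not of a fault in the receptors.

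Each animal gave 1 mRNA library, with 28311699 to 39131683 counts in all (median 32379246). The RNA integrity number, a score of how intact the RNA was, ran from 8.6 to 8.9 in NC, from 9.2 to 9.5 in DC and from 8.4 to 9.4 in DC + Lixi. RNA concentration averaged 327.0 ng/µl in NC, 536.9 ng/µl in DC and 587.3 ng/µl in DC + Lixi. Of the index pair in the library names, the first index was shared by NC and DC in part and by DC + Lixi with neither, and the second occurred in all groups. The gene numbers carry no names in the files or in the reference table at hand, so markers of retinal cell types were not used here and the tissue label was not checked. A whole retina mixes many cell types, and for every level given here fewer cells of a type and less RNA per cell cannot be told apart.

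The genes lie on different chromosomes, Insr on 12, Igf1r on 1 and Igf1 on 7 (RefSeq, build GRCr8). To show how unlike the ends of the receptor genes and of the ligand gene are, the 100 bases just before the start site in the RefSeq promoter table are printed 5′ to 3′, with each CpG (a C followed by a G, the pair that can be methylated) in capitals. Insr is read from the minus strand of chr12:6128804-6128903, Igf1r from the plus strand of chr1:130959897-130959996, and Igf1 from the plus strand of chr7:24172432-24172531. The genes were matched to this table by symbol, and the authors' own build is not stated.
Insr: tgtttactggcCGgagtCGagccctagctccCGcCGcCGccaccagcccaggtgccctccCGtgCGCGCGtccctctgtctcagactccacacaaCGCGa
Igf1r: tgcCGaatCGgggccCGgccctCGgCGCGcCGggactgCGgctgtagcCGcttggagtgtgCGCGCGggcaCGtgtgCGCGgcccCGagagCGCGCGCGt
Igf1: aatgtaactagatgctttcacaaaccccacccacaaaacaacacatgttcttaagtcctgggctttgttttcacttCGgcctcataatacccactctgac
These stretches hold 11 CpG in Insr, 20 in Igf1r and 1 in Igf1. Over the 250 bases before the start, Insr had 24 CpG and Igf1r had 45, where the median of 33469 such windows was 5 and 92.2% of the windows held at least 1. That is more than in 89.1% and 99.6% of the windows, respectively. Igf1 had 3 CpG, more than in 28.6% of the windows. Bases G and C made up 71.2% of the window in Insr, 79.6% in Igf1r and 46.8% in Igf1 (median of all windows 51.2%). Methylation and factor binding were not measured in this study.

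Transcripts of all 3 genes were detected in every retina. Levels of different genes were compared as FPKM, the authors' value relative to the length of the gene and the library total. Insr averaged 17.5 ± 0.586 FPKM (SD, n = 18), Igf1r 17.96 ± 2.07 FPKM (SD, n = 18) and Igf1 5.99 ± 0.733 FPKM (SD, n = 18). The mean level of Insr was higher than that of 67.1% of the genes tested, that of Igf1r higher than that of 67.9%, and that of Igf1 higher than that of 40.8%, with a median of 9.08 FPKM over all genes tested. Transcripts of the receptors were therefore present at similar levels, and those of the ligand at a lower one. No protein of these genes was measured. The ratio of Igf1r to Insr FPKM within an animal ran from 0.864 to 1.27 and was above 1 in 10 of the 18 animals. In every animal each receptor transcript was above that of the ligand. The ratios ran from 2.26 to 3.63 for Insr over Igf1 and from 2.13 to 3.97 for Igf1r over Igf1.

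**Figure D1:**
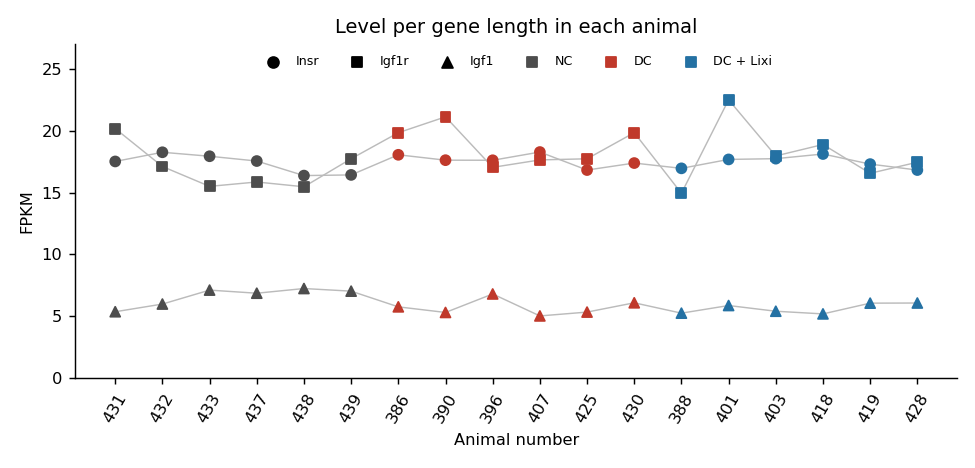
FPKM of Insr (circles), Igf1r (squares) and Igf1 (triangles) in each of the 18 animals, coloured by group, with grey lines joining the points of a gene. Insr lies between 16.4 and 18.3 FPKM within the wider range of Igf1r, 14.9 to 22.5 FPKM, and Igf1 lies between 5.03 and 7.25 FPKM in all animals.

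The FPKM values rest on the length of each gene model, which follows from count, FPKM and the total count of a library. This length was 6.97 kb for Insr and 4.10 kb for Igf1r, the same in each library with a deposited count. For Igf1 it differed between libraries, from 1.63 to 1.83 kb (median 1.79 kb), so that Igf1 FPKM are not a fixed multiple of its counts. A given gene was therefore compared between groups by its normalised read count (CPM, the count relative to the library total after TMM scaling, edgeR’s correction for library composition). The Igf1r count of DC + Lixi animal 401 was missing from the count table. It was restored from its FPKM of 22.5 as 3609 counts, the highest Igf1r count of all animals. The other 17 animals had 1774 to 2664 Igf1r counts.

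The insulin receptor gene Insr stood at almost the same level in the 3 groups. Its lowest CPM in NC was 114.6 (animal 439), the median 120.5 and the highest 125.3 (animal 432). The DC animals ranged from 118.5 CPM (animal 430) through a median of 120.8 to 126.9 (animal 407), and 2 of the 6 lay above all NC animals. DC + Lixi began at 118.1 CPM (animal 428), had a median of 123.2 and reached 127.4 (animal 401), with 3 of 6 above all NC animals. The groups overlapped over most of their range, with means of 120.0 ± 4.37 CPM in NC, 122.1 ± 3.51 CPM in DC and 123.2 ± 4.07 CPM in DC + Lixi (SD, n = 6 each). The order of these means was NC, DC, DC + Lixi, and no neighbours in this order differed beyond their spread. With FPKM the order was NC, DC + Lixi, DC, with 17.3, 17.4 and 17.6 FPKM.

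The log2 fold change of Insr in DC vs NC was 0.03 (standard error 0.03, adjusted p = 0.622 from edgeR's quasi-likelihood test). Its 95% confidence interval ran from 0.973-fold to 1.07-fold. In DC + Lixi vs NC the log2 fold change was 0.04 (standard error 0.03, adjusted p = 0.549 from edgeR), with an interval of 0.981-fold to 1.07-fold. Between DC + Lixi and DC the change was 1.01-fold (0.963-fold to 1.06-fold, adjusted p = 0.903 from edgeR). Together the intervals for Insr spanned differences from -3.67% to 7.46%.

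Insr was also among the genes that varied least between animals. Its biological coefficient of variation, edgeR's estimate of the spread beyond counting error, was 4.42%. This estimate is drawn toward a trend over genes of like abundance and is not the spread of Insr alone. The trend at its abundance was 8.41% and the value common to all genes 14.2%. A biological coefficient at or below that of Insr was found for 1.31% of the 16524 genes. Among the 18 libraries the CPM of Insr had a coefficient of variation of 3.28%, where counting error alone gives 1.57% to 1.63%. For Igf1r and Igf1 the biological coefficient was 10.9% and 9.82%, near the middle of all genes (55.2% and 49.9% of genes at or below).

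**Figure D2:**
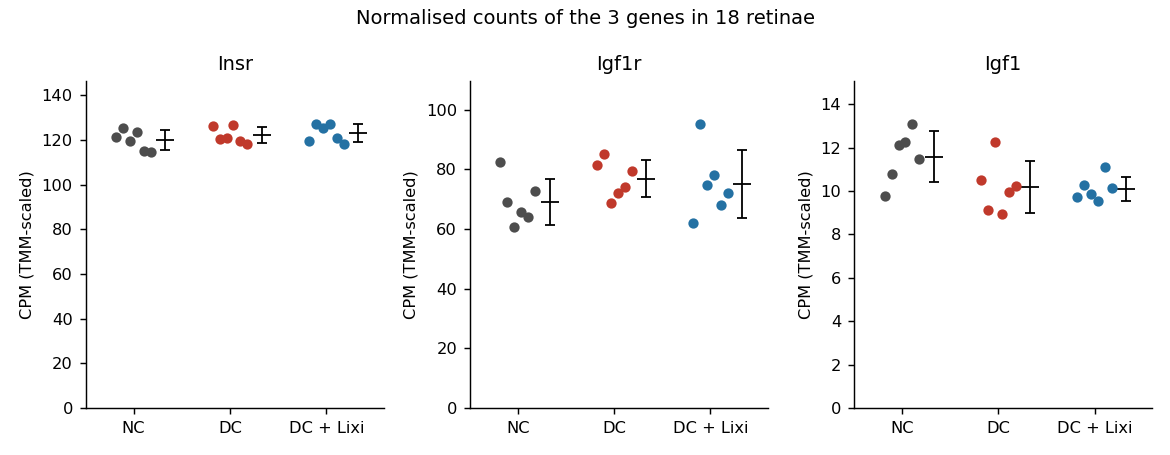
CPM of Insr, Igf1r and Igf1 in the 6 animals of each group (points), with the group mean and SD (black bars) and axes that start at 0. Insr lies between 114.6 and 127.4 CPM in all groups, Igf1r in DC + Lixi spreads from 62.1 to 95.4 CPM, and Igf1 in both diabetic groups lies mostly below NC but overlaps with it.

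Igf1r, the gene of the receptor for the ligand, had a higher mean in both diabetic groups than in NC without passing the test. NC animals ran from 60.8 CPM (animal 433) to 82.4 CPM (animal 431), with a median of 67.4 and the next highest animal, 439, at 72.8. The lowest DC animal, 396, had 68.8 CPM, the median was 76.9 and the highest, 390, had 85.1. All 6 DC animals lay above the NC median of 67.4 CPM, but only animal 390 lay above the highest NC animal, 431. Among DC + Lixi animals the lowest value was 62.1 CPM (animal 388), the median 73.5 and the highest 95.4 (animal 401), and 5 of 6 lay above the NC median. Animal 401, whose count was restored, was the highest of all 18, and animal 388 the lowest of the diabetic animals, so that this group spanned nearly the whole range of the gene.

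Group means of Igf1r were 69.1 ± 7.68 CPM in NC, 76.9 ± 6.20 CPM in DC and 75.1 ± 11.4 CPM in DC + Lixi (SD, n = 6 each). In increasing order the groups were NC, DC + Lixi and DC, and no neighbours in this order differed beyond their spread. The coefficient of variation of 15.2% in DC + Lixi compared with 11.1% in NC and 8.06% in DC, and counting error alone gives 2.04% to 2.10%. In DC vs NC the log2 fold change was 0.15 (standard error 0.09, adjusted p = 0.256 from edgeR), with a 95% confidence interval of 0.977-fold to 1.27-fold. In DC + Lixi vs NC it was 0.12 (standard error 0.09, adjusted p = 0.493 from edgeR), with an interval of 0.955-fold to 1.24-fold, and 0.04 without animal 401. In DC + Lixi vs DC it was -0.03 (standard error 0.09, adjusted p = 0.904 from edgeR), with an interval of 0.858-fold to 1.11-fold. Here 1 library could set the sign, since the value was -0.11 without DC + Lixi animal 401 and 0.02 without 388.

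Igf1, the ligand, was the only one of the 3 genes with a lower mean in diabetic than in healthy retinae, and it did not pass the test either. NC retinae held 9.77 CPM of it at the lowest (animal 431), 11.8 at the median and 13.1 at the highest (animal 438). DC retinae held 8.92 CPM at the lowest (animal 407), 10.08 at the median and 12.3 at the highest (animal 396). Of the DC animals 5 lay below the NC median and 2 below all NC animals, whereas animal 396 lay above 5 of the 6 NC animals. DC + Lixi retinae stayed within 9.53 CPM (animal 418) and 11.1 CPM (animal 419), around a median of 9.98. All 6 lay below the NC median, and 2 of them lay below the lowest NC animal, which was 431.

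Mean Igf1 was 11.6 ± 1.18 CPM in NC, 10.2 ± 1.20 CPM in DC and 10.102 ± 0.559 CPM in DC + Lixi (SD, n = 6 each). DC + Lixi and DC, the neighbours at the low end of the order, did not differ beyond their spread. The spread of DC + Lixi, 5.53%, was about that of counting error alone (5.50%), whereas in NC and DC it was 10.2% and 11.8% against counting errors of 5.15% and 5.69%. In DC vs NC the log2 fold change was -0.19 (standard error 0.08, adjusted p = 0.117 from edgeR), a difference of -12.2% with a 95% confidence interval of -21.9% to -1.42%. In DC + Lixi vs NC it was -0.20 (standard error 0.08, adjusted p = 0.183 from edgeR), a difference of -12.7% with an interval of -22.3% to -1.99%. Both comparisons use the same NC libraries. Unadjusted p-values of edgeR were 0.0297 and 0.0239, but 30.7% of all genes tested had an unadjusted p under 0.05 in DC vs NC and 19.3% in DC + Lixi vs NC. Leaving out 1 animal changed the DC vs NC call. Without DC animal 396 the log2 fold change was -0.25 and the gene passed (adjusted p = 0.0342 from edgeR), while the adjusted p over all alternatives ran from 0.0342 to 0.565.

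Treated and untreated diabetic retinae had nearly equal Igf1, with a log2 fold change of -0.0081 in DC + Lixi vs DC (standard error 0.08, adjusted p = 0.976 from edgeR). The 95% confidence interval of this difference ran from -11.5% to 11.7%. Of the DC + Lixi animals, 3 were above the DC median and 3 below it. FPKM gave the same order of means. Mean Igf1 was 6.60 ± 0.752 FPKM in NC, 5.72 ± 0.649 FPKM in DC and 5.65 ± 0.405 FPKM in DC + Lixi (SD, n = 6 each), which gives ratios of 0.867 for DC over NC and 0.855 for DC + Lixi over NC, against 0.878 and 0.873 with CPM.

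Thus 0 of the 3 genes were called at an adjusted p under 0.05 in any comparison. Among all 16524 genes, edgeR called 16% in the comparison of DC with NC, 1.54% in that of DC + Lixi with NC and 0% in that of DC + Lixi with DC. In the last comparison 2048 genes, or 12.4%, had an unadjusted p under 0.05, and limma-voom called 0. DESeq2, run on all 32623 genes without the filter on low counts, called 92. Genes called by edgeR had a median of 1.38-fold where DC exceeded NC and of 1.17-fold where it was lower. The median log2 fold change of all genes lay between -0.0047 and 0.0017 in the 3 comparisons. The middle 50% of all genes lay between -0.10 and 0.14 on the log2 scale in DC vs NC, and Igf1r and Igf1 lay outside this range on opposite sides.

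**Figure D3:**
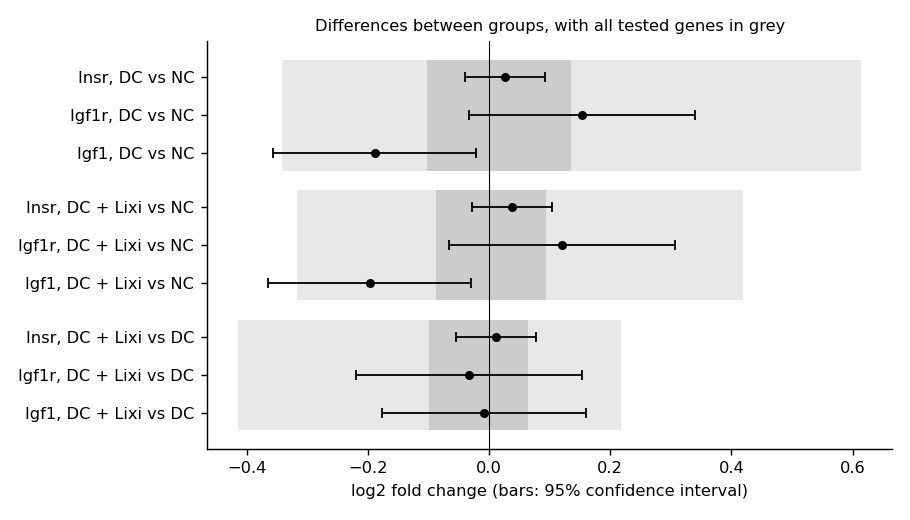
Log2 fold changes of the 3 genes in the 3 comparisons (points) with their 95% confidence intervals, over the range of the middle 50% of the 16524 genes tested (dark grey) and of all but the lowest and highest 5% (light grey). The intervals of Igf1 against NC end at -0.02 in DC and -0.03 in DC + Lixi, and all other intervals include 0. The intervals are not adjusted for the number of genes tested, and Igf1 was not called in either comparison.

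RNA integrity differed between NC and DC with no overlap, so its values stand beside these results. In DC vs NC the part of RNA integrity therefore cannot be told apart from that of diabetes. Taken as a covariate, the integrity number left edgeR with 0 genes called of all in DC vs NC. The part of RNA concentration was not tested. With the integrity number as a covariate, the log2 fold change in DC vs NC was 0.0089 for Insr, 0.07 for Igf1r and -0.18 for Igf1. Their standard errors were 0.05, 0.14 and 0.13, against 0.03, 0.09 and 0.08 without this covariate. In DC + Lixi vs NC, where the integrity numbers overlap, the values were 0.03, 0.10 and -0.19. Across the 18 animals the correlation of the integrity number with log2 CPM was 0.19 for Insr, 0.36 for Igf1r and -0.32 for Igf1 (permutation test, two-sided, p = 0.452, 0.142 and 0.189, adjusted p = 0.452, 0.213 and 0.227 over 6 relations). Spearman's rho was 0.15, 0.41 and -0.27 (permutation test, p = 0.552, 0.0891 and 0.275, adjusted p = 0.552, 0.239 and 0.33). Without DC animal 386 and DC + Lixi animal 428, the farthest from the median integrity number, r was -0.01, 0.34 and -0.45. Within groups of 6 animals r for Igf1 was -0.11 in NC, 0.0013 in DC and -0.03 in DC + Lixi. For Igf1r it was 0.26, 0.70 and 0.06, and for Insr -0.80, 0.29 and 0.44.

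Receptor and ligand genes were next compared among animals. Permutations ran over all 18 animals, so the p-values also take in differences between groups. Igf1r and Igf1 were negatively correlated, with r = -0.54 over 18 animals (permutation test, two-sided, p = 0.0194), which did not pass after adjustment over 6 relations (adjusted p = 0.116 from the permutation test). Spearman's rho was -0.49 (permutation test, p = 0.0395, adjusted p = 0.237). Without DC + Lixi animal 401 and NC animal 433, the farthest from the median of Igf1r, r was -0.56. Within the groups r was -0.86 in NC, -0.44 in DC and -0.01 in DC + Lixi, with 6 animals each, and it was -0.43 over all animals once group means were removed. NC animal 431 had the highest Igf1r and the lowest Igf1 of its group. Insr and Igf1r had r = 0.40 (permutation test, p = 0.0964, adjusted p = 0.193) and rho = 0.37 (permutation test, p = 0.129, adjusted p = 0.239). Within groups this r was 0.09 in NC, -0.09 in DC and 0.75 in DC + Lixi, and without DC + Lixi animal 401 and NC animal 439 it was 0.32 over the rest. For Insr and Igf1 r was -0.44 (permutation test, p = 0.0685, adjusted p = 0.193) and rho -0.35 (permutation test, p = 0.16, adjusted p = 0.239), with -0.42 without the same pair of animals and -0.44, -0.26 and -0.29 within NC, DC and DC + Lixi.

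**Figure D4:**
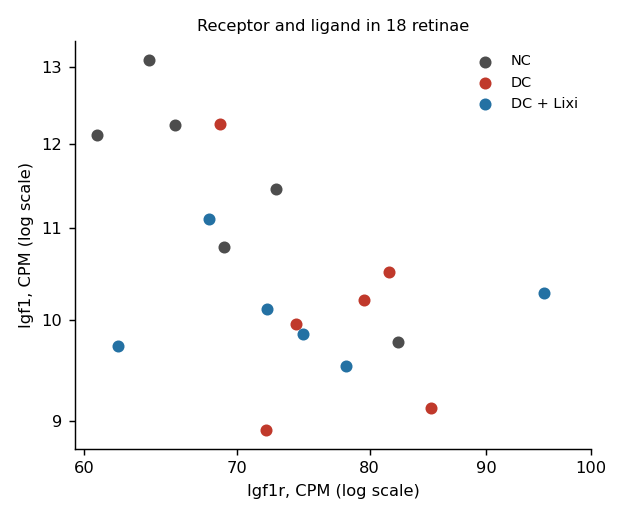
Igf1 against Igf1r CPM on log scales, 1 point for each of the 18 animals, coloured by group. NC animals run from 60.8 CPM Igf1r and 12.1 CPM Igf1 to 82.4 and 9.77 CPM, while DC + Lixi animals spread in Igf1r at 9.53 to 11.1 CPM Igf1.

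The ratio of receptor to ligand transcripts was taken within each animal from FPKM, as a description without a test. The gene length behind Igf1 FPKM differed between libraries, so ratios over Igf1 also hold that difference. Igf1r over Igf1 averaged 2.63 ± 0.614 in NC, 3.33 ± 0.479 in DC and 3.20 ± 0.459 in DC + Lixi (SD, n = 6 each). The groups overlapped, as NC reached 3.76 in its highest animal and DC began at 2.50. Insr over Igf1 averaged 2.66 ± 0.402 in NC, 3.11 ± 0.362 in DC and 3.10 ± 0.274 in DC + Lixi. The ratio of the receptors to each other, Igf1r over Insr, was 0.980 ± 0.111 in NC, 1.07 ± 0.0941 in DC and 1.03 ± 0.132 in DC + Lixi.

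**Figure D5:**
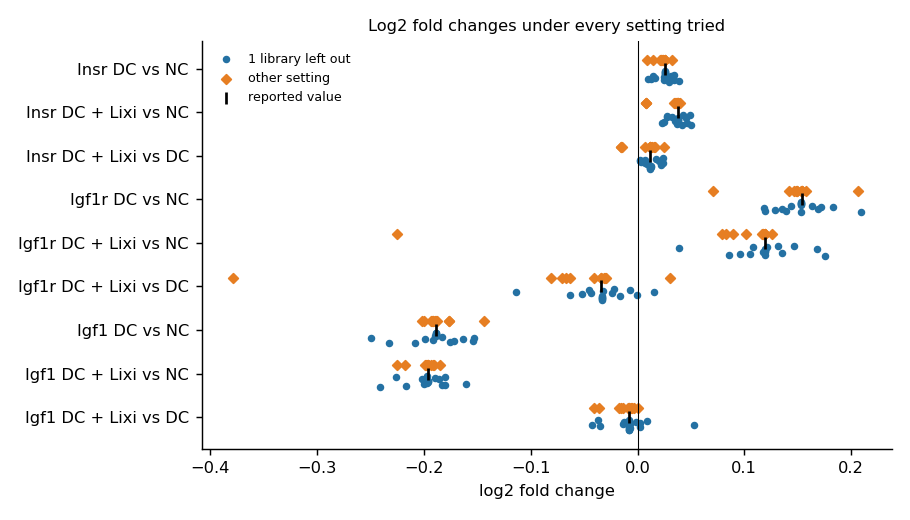
Log2 fold change of each gene and comparison as reported (black bars), with 1 library left out (blue points) and under 12 other settings (orange diamonds). Igf1 stays below 0 in both comparisons with NC, and the far left diamonds of Igf1r at -0.23 and -0.38 come from setting the missing count of animal 401 to 0.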

How the data were processed

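Retinal mRNA of 18 rats was sequenced as single-end reads. Alignment to rat gene models and quantification were done by the authors in Array Studio, with testing in its DESeq2 module, a tool that the submitters' processing notes also name. Of the aligner, build and annotation no name is given in the sources used here. The authors deposited estimated counts per gene, not normalized, and FPKM values, which divide counts by gene length and library total. Of the deposited counts above 0, 26.0% are not whole (tolerance 1e-06). A deposited sheet adds 1 count of alignments for each library, its RNA concentration and its RNA integrity number, which is a score.

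The count table lacks 46805 of 587214 values. Each missing value was estimated as its FPKM times the median ratio of count to FPKM of the gene, after scaling for the library, which gave 1504 of the 4081 missing values with FPKM above 0, 255 of them in DC + Lixi animal 401, against 35 to 121 in the other libraries. The rest were set to 0. Where the count is known, the step was off by at most 0.00029% for Igf1r but by up to 10.1% for Igf1, whose ratio is not constant and for which no count was missing. The error for other genes was not assessed. Counts were rounded and tested in edgeR 4.0.16 (R 4.3.3) with filterByExpr, TMM scaling (factors 0.967 to 1.046) and the quasi-likelihood test, in 1 fit of the 3 groups with 15 residual degrees of freedom. Benjamini-Hochberg adjustment covered all genes tested, with a threshold of 0.05. The edgeR step for DC vs NC was also run on simulated counts with known changes. Animals are separate, but each gave 1 library, so the spread holds differences between animals and those from preparing the libraries. Relations used 100000 permutations of log2 CPM over all animals, not within groups.

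Alternatives were limma-voom (limma 3.58.1), DESeq2 1.42.0, RLE factors or total counts, no filter, a fit of only the groups compared, robust dispersion, the RNA integrity number or 1 surrogate variable (sva 3.50.0) as covariate, limma on log2(FPKM + 1) and log2(FPKM + 0.1), missing counts set to 0, and leaving out each library. DESeq2 was run on all 32623 genes without filterByExpr, so its numbers of called genes rest on another set than those of edgeR.

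The rule that takes the 3 genes uses only their gene numbers, but the genes, lists and alternatives were chosen with earlier results of these data known, so the choice was not a blind one. The rule for genes to name was the 3 genes, members of a pathway list, and the 3 genes most like each of them, of which only the first is printed. The lists of pathway genes and cell markers need gene names, and the reference table matched 0 of the 32623 gene numbers, so they are not reported here. Promoter windows of all 3 genes came from RefSeq (GRCr8).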

Additional observations from a re-analysis of the deposited data

How the results depend on the processing

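The 9 tests under 12 other settings and with each of 18 libraries left out gave 270 values. Of these, 258 kept their direction and their side of the threshold, 11 changed sign and 1 passed the threshold. Leaving out a library of the group not compared hardly moved the log2 fold change, and robust dispersion left it the same. Such values are among the 258 and say little on how stable the direction is. Without DC animal 396, Igf1 in DC vs NC passed at -0.25, and leaving out single libraries gave -0.25 to -0.15 for it. The sign changes were those of small differences, apart from Igf1r in DC + Lixi vs NC, which became -0.23 with missing counts set to 0. That setting replaces the highest Igf1r count of all animals by 0. Insr in DC + Lixi vs DC became -0.016 with total counts only, -0.015 with log2(FPKM + 1) and -0.016 with log2(FPKM + 0.1). In the same comparison Igf1r became 0.031 with the RNA integrity number as covariate and ran from -0.114 to 0.015 with single libraries left out, and Igf1 became 0.00068 with limma-voom and ran from -0.043 to 0.053. The cause of these changes was not tested. The 2652 genes that edgeR called in DC vs NC became 0 with the RNA integrity number as covariate, which cannot be told apart from diabetes there. They became 1105 with 1 surrogate variable, 1752 without DC animal 390, 1485 without 430, 3531 without 425 and 3115 with DESeq2. The 254 of DC + Lixi vs NC became 840 with DESeq2, 433 with total counts, 121 without a filter, 116 with limma-voom and 45 with the integrity number, and ran from 27 to 611 with single libraries left out. The 0 of DC + Lixi vs DC became 92 with DESeq2 and 5 without DC animal 425. All 117 ratios of group means in FPKM, with CPM in its place or with a library left out, moved by less than 1 SD. This is the SD among animals of the first group, relative to the mean of the second. Leaving out a single library could not move a ratio that far here, so those values do not show stability. The alternatives for the pathway list were not run, since it is not reported here. No paired analysis was possible because each animal number occurs in 1 group only. For Igf1, with 274 to 459 counts per library, counting error alone is about as large as the whole spread among the DC + Lixi libraries. For Insr and Igf1r, with at least 1774 counts, the spread between libraries exceeded counting error. Differences between animals and those from preparing their libraries cannot be told apart.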

Other observations

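The gene whose log2 CPM was most like that of Igf1 over the 18 libraries was ENSRNOG00000061304, with r = 0.87 among 16281 genes compared (r = 0.85 once group means were removed). The third most alike still had r = 0.82, 6 genes had r above 0.8 and 7 had r below -0.8. For Igf1r the most alike gene was ENSRNOG00000030339 (r = 0.78, and 0.76 without group means), and for Insr it was ENSRNOG00000054641 (r = 0.71 in each case). No gene had r above 0.8 with either receptor, while 1 gene had r below -0.8 with Igf1r. These are the highest of many correlations in the same libraries and are given as a description. Genes with a count of 0 in any library were left out.

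The gene length implied by count and FPKM of Igf1 was 1.63 kb in NC animal 439, 1.65 kb in DC + Lixi animal 428, 1.69 kb in DC + Lixi animal 401 and 1.71 kb in DC animal 430, against up to 1.83 kb in others. Group means were 1.77 ± 0.0742 kb in NC, 1.78 ± 0.0470 kb in DC and 1.77 ± 0.0767 kb in DC + Lixi (SD, n = 6 each), with overlapping ranges. For the receptors this length did not vary.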
